A study of Homo sapiens with 20 samples.

Results

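The 9 genes described here encode amino acid transporters of the T cell plasma membrane: SLC7A1, SLC7A5, SLC7A6, SLC7A11, SLC3A2, SLC1A4, SLC1A5, SLC38A1 and SLC38A2. They were matched to the deposited tables by gene symbol, are 9 of the 60719 genes listed, and all 9 were among the 16327 genes that passed the filter on low counts and were tested. RNA of Jurkat cells, a human T cell leukemia line (WT), and of JinB8, a CD47-deficient line derived from Jurkat, was sequenced as bulk RNA in 20 libraries. Both lines were moved to a serum-free medium and treated with antibodies against CD3 and CD28 (CD3+CD28), with these antibodies and thrombospondin-1 (CD3+CD28+TSP1), or with thrombospondin-1 alone (TSP1), each for 1, 3 and 6 h, and untreated cells were taken at 1 h. TSP1, a secreted ligand of CD47, was given at 1 µg/mL and the CD28 antibody at 4 µg/mL. The comparisons ask how loss of CD47, time, T cell receptor stimulation and TSP1 alter the transcriptome. JinB8 is 1 mutant line, so the absence of CD47 and any other property of that line cannot be told apart. Each combination of line, treatment and time was sequenced once. Libraries of a line and time therefore served as replicates (n = 4 at 1 h, n = 3 at 3 h and n = 3 at 6 h), and p-values measure the spread between libraries that differ in treatment.

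T cells import amino acids through a small number of carriers, and activation is known to raise their need for leucine, glutamine, arginine and cystine. SLC7A5 (LAT1, large neutral amino acids), SLC7A6 (y+LAT2, cationic and neutral amino acids) and SLC7A11 (xCT, cystine against glutamate) are light chains that reach the membrane bound to a shared heavy chain, SLC3A2 (4F2hc, CD98). SLC7A1 (CAT1) carries arginine and lysine on its own, SLC1A4 (ASCT1) and SLC1A5 (ASCT2) exchange small neutral amino acids, with glutamine the best known substrate of SLC1A5, and SLC38A1 (SNAT1) and SLC38A2 (SNAT2) take up glutamine and other neutral amino acids with sodium. Several of these genes are textbook targets of ATF4, the transcription factor of the amino acid response, which acts when amino acids run short.

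Library totals ranged from 20483642 to 31737616 counts in WT and 16107921 to 28525524 in JinB8, and 3 counts, taken as the limit of detection, correspond to 0.0979 to 0.156 CPM (counts scaled by library total and TMM factor), for counting error only. CD47 averaged 317 CPM in WT and 147 CPM in JinB8, with no overlap between the lines. The 12 T cell markers summed to 1521 to 1977 CPM in WT and 1576 to 2245 in JinB8, none of them at 0 in all libraries. Single markers moved in opposite directions with no overlap between the lines: TRAC, the T cell receptor alpha chain, measured 122 to 301 CPM in WT and 15.01 to 28.7 in JinB8, CD28 25.04 to 65.8 and 203 to 262, and CD2 35.1 to 50.8 and 79.5 to 143. Their part in the results was not tested. The 5 B cell markers summed to 35.6 to 56.0 CPM in WT and 5.86 to 13.7 in JinB8, and the myeloid, fibroblast and epithelial lists stayed at or below 8.79 CPM in every library. The library JinB8 CD3+CD28+TSP1 3 h stood apart: it had the fewest counts and a mean absolute log2 difference of 0.326 from its group, against 0.114 to 0.223 in the others, and the highest mitochondrial share (0.663%). Where leaving it out changed a call or moved a named value by over 1.5 times, the value without it is given.

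The 9 transporters split by line over time. In WT, 7 of 9 were lower at 6 h than at 1 h and 1 was higher. In JinB8, 7 of 9 were higher at 6 h and 1 was lower. Of all genes tested, 26.6% were called lower and 26.8% higher in WT, and 27.5% lower and 26.4% higher in JinB8 (adjusted p under 0.05). The median log2 change of the 9 genes was -0.54 in WT and 0.86 in JinB8, beside medians of -0.01 and -0.01 over all genes. The difference between the lines in the 6 h change was itself tested: for 7 of 9 transporters the log2 change was higher in JinB8 than in WT and for 0 it was lower, where 6.39% of all genes were called in the first direction and 10% in the second. The members' median of that difference was 1.37 on the log2 scale. The mitochondrial share of counts was lower at 6 h as well: it ranged over 0.584% to 0.643% at 1 h and 0.380% to 0.423% at 6 h in WT, with no overlap, and over 0.498% to 0.603% and 0.339% to 0.510% in JinB8, where the ranges overlapped. Its part in these changes was not tested. In bulk RNA, fewer expressing cells and less RNA per cell cannot be told apart.

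**Figure D1:**
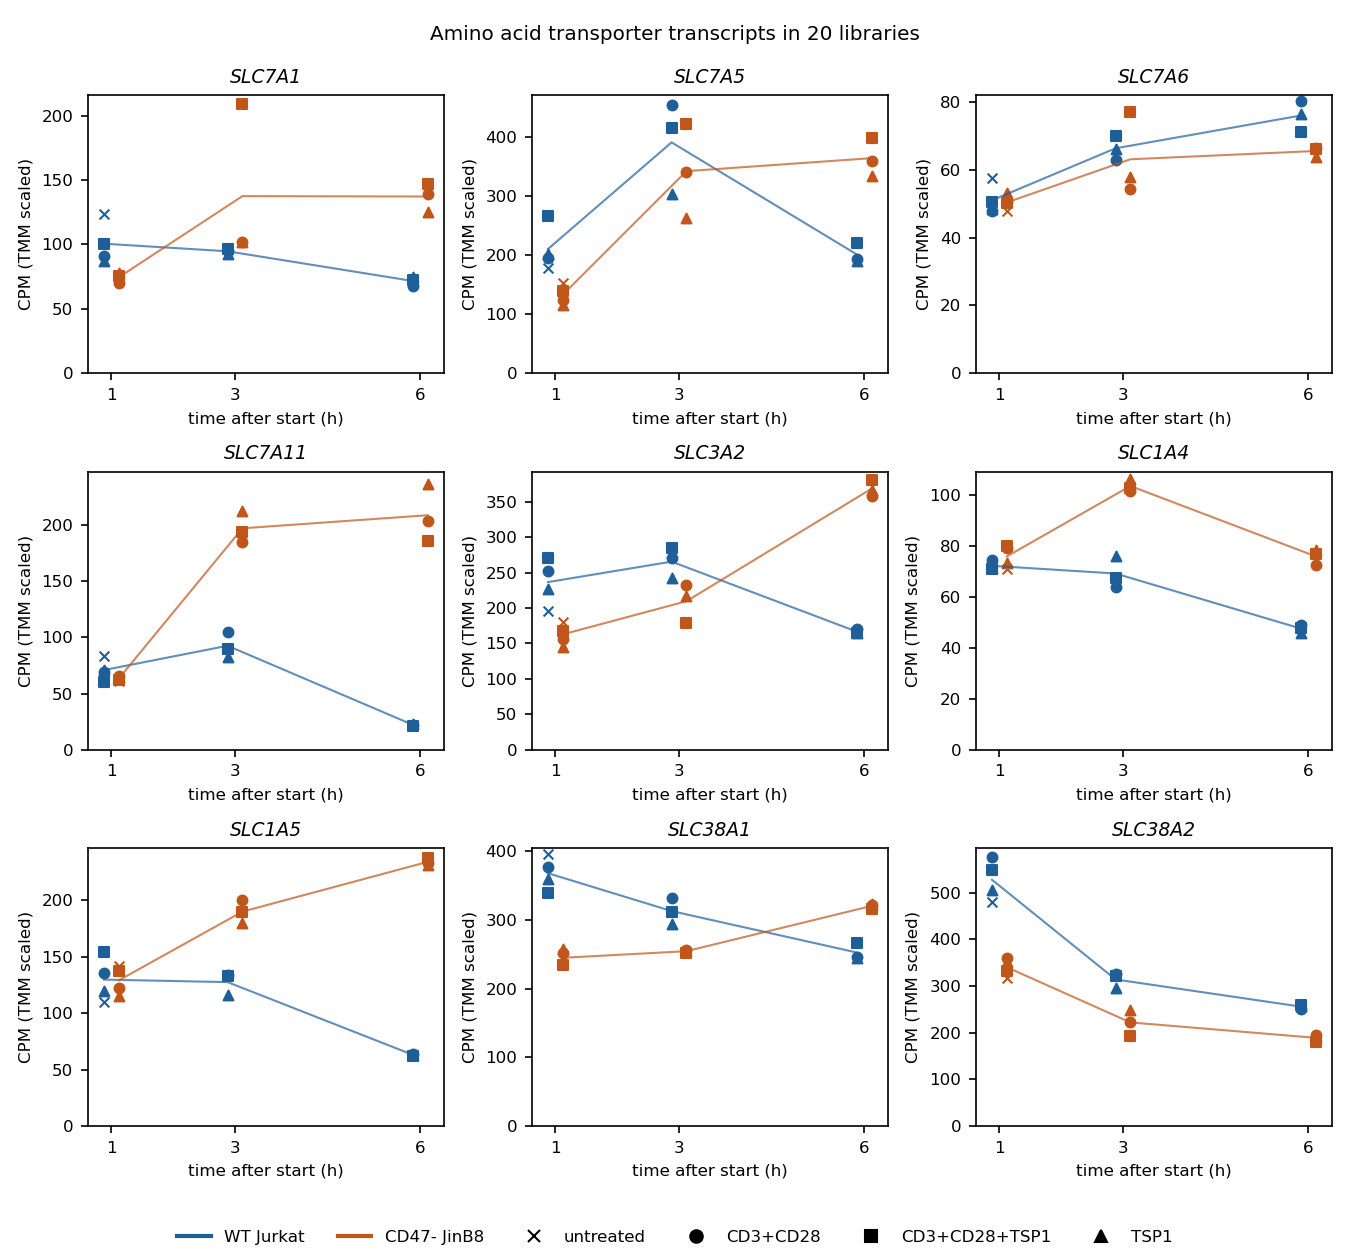
CPM of the 9 transporters in each of the 20 libraries (y axis) at 1, 3 and 6 h (x axis), with a point for each library, shaped by treatment and coloured by line, and lines through the group means. SLC7A11 lies between 21.0 and 22.9 CPM in WT and between 186 and 237 CPM in JinB8 at 6 h, while SLC38A2 declines in both lines.

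SLC7A11, the cystine carrier that feeds glutathione synthesis, showed the largest divergence of the 9. At 1 h the WT libraries held 83.4 CPM (untreated), 68.8 (CD3+CD28), 60.5 (CD3+CD28+TSP1) and 71.1 (TSP1), and the JinB8 libraries 61.5, 65.9, 61.8 and 64.5 in the same order. The JinB8 values lay inside the WT range at this time. At 3 h WT held 105 (CD3+CD28), 89.8 (CD3+CD28+TSP1) and 82.8 CPM (TSP1), and JinB8 185, 194 and 213. At 6 h WT had dropped to 22.4, 21.0 and 22.9 CPM, whereas JinB8 stood at 204, 186 and 237. Every JinB8 library exceeded every WT library at 3 and at 6 h, and the 6 h values did not overlap those at 1 h in either line. SLC7A11 therefore fell 3.21-fold in WT (log2 change -1.68 ± 0.11 SE, adjusted p = 1.4e-10) and rose 3.30-fold in JinB8 (1.72 ± 0.10, adjusted p = 3.0e-11). The difference between these changes was 3.41 ± 0.15 (adjusted p = 8.9e-12). It ranged from 3.32 to 3.51 when each of the 20 libraries was left out in turn. At 6 h JinB8 exceeded WT 9.47-fold.

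SLC3A2, the heavy chain without which the light chains are not carried to the surface, crossed between the lines. At 1 h it measured 196, 253, 271 and 227 CPM in WT (untreated, CD3+CD28, CD3+CD28+TSP1, TSP1) and 181, 157, 168 and 146 in JinB8, so that every JinB8 library was below every WT library. At 6 h it measured 171, 164 and 165 CPM in WT (CD3+CD28, CD3+CD28+TSP1, TSP1) and 358, 381 and 367 in JinB8. The order of the lines was thus turned, again with no overlap. SLC3A2 fell by 0.51 ± 0.10 on the log2 scale in WT (adjusted p = 0.00033) and rose by 1.18 ± 0.10 in JinB8 (adjusted p = 7.0e-09), and the changes differed by 1.69 ± 0.14 (adjusted p = 1.7e-07). At 3 h it held 270.2, 285 and 242 CPM in WT and 232, 179.5 and 218 in JinB8, the lowest being the library that stood apart. That difference of -0.34 ± 0.11 (adjusted p = 0.015) became -0.22 without it (adjusted p = 0.116) and -0.27 without WT CD3+CD28+TSP1 3 h (adjusted p = 0.0842).

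SLC7A5, the leucine carrier that supplies mTORC1 signaling in activated T cells, rose by 3 h in both lines and at 6 h was above its 1 h level in JinB8. In WT it measured 179, 195, 266 and 201 CPM at 1 h, 454, 416 and 303 at 3 h, and 193, 221 and 189 at 6 h. In JinB8 it measured 153, 123, 139.9 and 115 CPM at 1 h, 340.0, 423 and 263 at 3 h, and 360.0, 398 and 334 at 6 h. The WT values at 6 h overlapped those at 1 h, while the JinB8 values at 6 h lay above all of its 1 h values. From 1 to 3 h the log2 change was 0.89 ± 0.16 in WT (adjusted p = 0.00015) and 1.36 ± 0.16 in JinB8 (adjusted p = 1.9e-06). From 1 to 6 h it was -0.07 in WT (interval of 2 SE, -0.38 to 0.25, adjusted p = 0.752) and 1.45 ± 0.16 in JinB8 (adjusted p = 1.8e-07), and the changes differed by 1.52 ± 0.23 (adjusted p = 0.00010).

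SLC7A6, the third light chain, was the exception among them. It measured 47.7 to 57.5 CPM at 1 h and 71.3 to 80.4 CPM at 6 h in WT, and 47.7 to 53.2 and 63.9 to 66.5 CPM in JinB8. The 6 h values lay above the 1 h values in both lines. It rose by 0.58 ± 0.09 in WT (adjusted p = 3.1e-05) and by 0.38 ± 0.09 in JinB8 (adjusted p = 0.0019). The difference between the lines was -0.20 with an interval of -0.46 to 0.07 (adjusted p = 0.360). At 3 h it held 63.0, 69.9 and 66.2 CPM in WT and 54.4, 77.2 and 57.8 in JinB8. The highest of these is again the library that stood apart. Its 3 h rise in JinB8 of 0.32 ± 0.09 (adjusted p = 0.010) became 0.17 without that library (adjusted p = 0.0689). Without it, the line difference also passed at 3 h (-0.22, adjusted p = 0.0223), at 6 h (-0.20, adjusted p = 0.0145) and over all times (-0.14, adjusted p = 0.00346).

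SLC7A1, the main arginine carrier, fell modestly in WT and rose in JinB8. In WT it held 124, 90.9, 100.4 and 87.3 CPM at 1 h, the untreated library being highest, and 67.8, 72.4 and 74.4 at 6 h. In JinB8 it held 73.9, 70.3, 75.4 and 78.1 CPM at 1 h and 139, 147 and 125 at 6 h. Neither line's 6 h values overlapped its 1 h values. The log2 changes were -0.49 ± 0.18 in WT (adjusted p = 0.026) and 0.88 ± 0.17 in JinB8 (adjusted p = 0.00025), and they differed by 1.37 ± 0.25 (adjusted p = 0.00081). The WT decline did not pass without WT untreated 1 h (-0.38, adjusted p = 0.0918), WT CD3+CD28 6 h (-0.47, adjusted p = 0.0750) or WT CD3+CD28+TSP1 6 h (-0.50, adjusted p = 0.0596), nor by limma voom (-0.45, adjusted p = 0.0505). At 3 h SLC7A1 held 95.0, 96.7 and 92.2 CPM in WT and 102, 209 and 102 in JinB8. The high value belongs to the library that stood apart. Without it the 3 h rise in JinB8 became 0.46 (adjusted p = 0.00078), from 0.88 ± 0.17 (adjusted p = 0.00055).

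SLC1A5, the glutamine exchanger, had the second largest divergence. At 1 h it measured 109.7, 136, 154 and 119 CPM in WT and 142, 123, 137 and 115 in JinB8, ranges that overlapped. At 3 h it measured 134, 133 and 116 CPM in WT and 200.2, 189.8 and 179.8 in JinB8. At 6 h it measured 63.9, 62.5 and 62.8 CPM in WT against 233, 237 and 231 in JinB8. The lines were fully apart from 3 h on. SLC1A5 fell 2.06-fold in WT (-1.04 ± 0.10, adjusted p = 2.7e-08) and rose 1.81-fold in JinB8 (0.86 ± 0.09, adjusted p = 1.8e-07), and the changes differed by 1.90 ± 0.13 (adjusted p = 1.3e-08). At 6 h JinB8 exceeded WT 3.71-fold.

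SLC1A4, the related carrier of serine, alanine and cysteine, fell in WT by 6 h and rose in JinB8 at 3 h. In WT it held 72.2, 74.4, 70.7 and 71.1 CPM at 1 h, 63.9, 67.3 and 76.0 at 3 h and 48.9, 47.6 and 45.8 at 6 h. In JinB8 it held 71.0, 78.9, 79.9 and 73.3 CPM at 1 h, 101, 103 and 106 at 3 h and 72.5, 76.6 and 78.2 at 6 h. The JinB8 values at 3 h stood above all others of this gene. SLC1A4 fell by 0.60 ± 0.06 in WT by 6 h (adjusted p = 1.2e-07), rose by 0.45 ± 0.06 in JinB8 by 3 h (adjusted p = 1.2e-05), and at 6 h in JinB8 was within -0.12 to 0.12 of its 1 h level (adjusted p = 0.994). The 6 h changes differed by 0.60 ± 0.09 (adjusted p = 8.5e-05).

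The sodium-coupled pair went separate ways. SLC38A1 measured 397, 377, 339 and 359.7 CPM in WT at 1 h and 246, 267 and 245 at 6 h, and in JinB8 235, 252, 235 and 258 CPM at 1 h and 323, 317 and 323 at 6 h. At 3 h it measured 333, 312 and 294 CPM in WT and 257, 252 and 255 in JinB8. On this scale every JinB8 library lay below every WT library at 1 and 3 h and above them at 6 h. On the scale per transcript length (TPM) the 3 h order was not kept, with 37.8 to 45.3 in WT and 40.8 to 56.6 in JinB8, the highest being the library that stood apart. SLC38A1 fell by 0.54 ± 0.06 in WT (adjusted p = 6.3e-07) and rose by 0.39 ± 0.06 in JinB8 (adjusted p = 3.1e-05), a difference of 0.93 ± 0.09 (adjusted p = 8.5e-07).

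SLC38A2, known for its strong induction when cells are starved of amino acids, declined in both lines. It measured 480.0, 576, 549 and 506 CPM at 1 h, 326, 321 and 295 at 3 h and 252, 259 and 257 at 6 h in WT. It measured 318, 360.0, 332 and 351 CPM at 1 h, 223, 194 and 249 at 3 h and 195, 179 and 192 at 6 h in JinB8. In CPM, JinB8 was below WT in 10 of 10 pairs matched for treatment and time. Per transcript length the 3 h ranges overlapped, with 73.2 to 83.9 TPM in WT and 71.9 to 85.2 in JinB8. The 6 h change was -1.04 ± 0.08 in WT (adjusted p = 2.5e-09) and -0.85 ± 0.08 in JinB8 (adjusted p = 3.8e-08). The difference of these was 0.20 with an interval of -0.03 to 0.42 (adjusted p = 0.268).

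**Figure D2:**
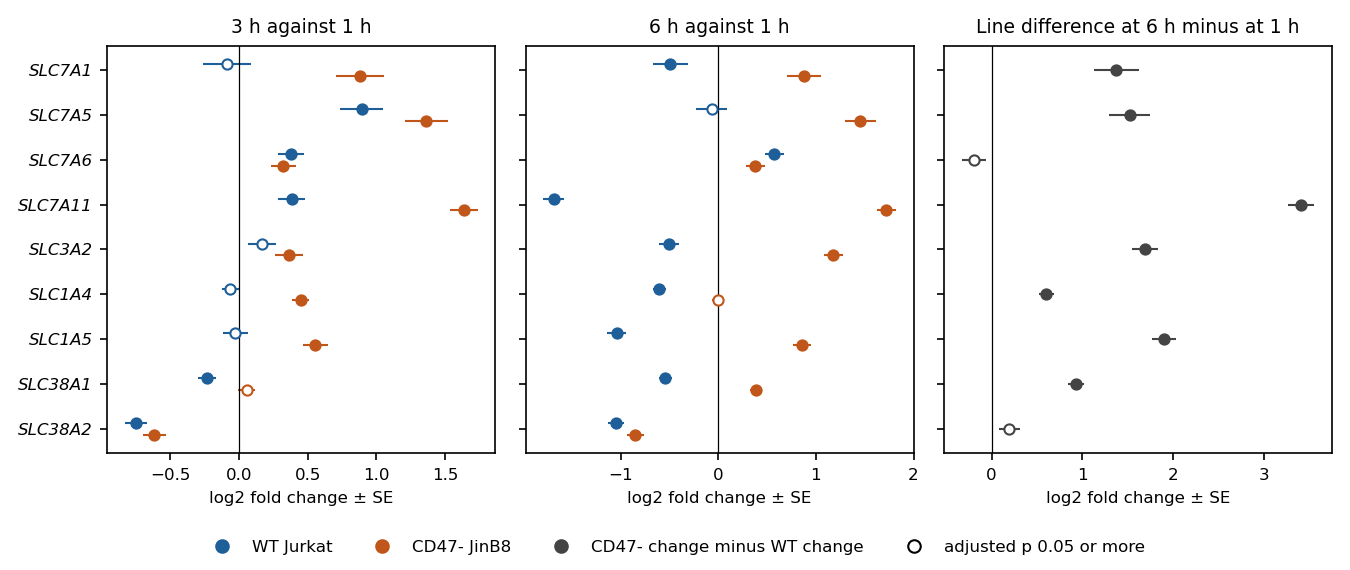
Log2 fold change ± SE (x axes) of each transporter from 1 to 3 h and from 1 to 6 h in each line, and the difference between the lines in the 6 h change, with open points for an adjusted p of 0.05 or more. From 1 to 6 h SLC7A11, SLC1A5, SLC3A2, SLC7A1 and SLC38A1 lie on opposite sides of 0 in the lines, SLC7A6 is above 0 in both (0.58 and 0.38) and SLC38A2 below 0 in both (-1.04 and -0.85).

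At 3 h against 1 h, 3 of 9 transporters were higher and 2 lower in WT, where 18.3% and 18.5% of all genes were called, and 7 were higher and 1 lower in JinB8, where 18.9% and 20.4% were called. The WT rises at 3 h were those of SLC7A5, SLC7A6 (0.38 ± 0.09, adjusted p = 0.0034) and SLC7A11 (0.38 ± 0.10, adjusted p = 0.0047). The last became 0.28 without WT CD3+CD28 3 h (adjusted p = 0.0501). In JinB8 SLC7A11 had already risen by 1.64 ± 0.10 at 3 h (adjusted p = 8.8e-10), SLC1A5 by 0.56 ± 0.09 (adjusted p = 0.00011) and SLC3A2 by 0.36 ± 0.10 (adjusted p = 0.0078). The SLC3A2 rise became 0.29 without JinB8 CD3+CD28 3 h (adjusted p = 0.0522).

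Between the lines, SLC7A1, SLC7A5, SLC3A2 and SLC38A1 were called lower in JinB8 at 1 h and higher at 6 h. Shares over all genes are given for each time alone, and the share of all genes with both calls was not counted. Per transcript length the 1 h ranges overlapped for SLC7A1, at 10.9 to 17.8 TPM in WT and 10.8 to 12.1 in JinB8. They also overlapped for SLC7A5, at 37.4 to 50.6 TPM in WT and 31.5 to 41.9 in JinB8. At 1 h, 0 of 9 transporters were higher and 5 lower in JinB8 (24.7% and 23.7% of all genes). At 3 h, 4 were higher and 3 lower (23.5% and 22.8%). At 6 h, 7 were higher and 1, SLC38A2, lower (22.5% and 24.1%). The 5 genes lower at 1 h were SLC7A1 (-0.43 ± 0.16, adjusted p = 0.034), SLC7A5 (-0.66 ± 0.15, adjusted p = 0.00094), SLC3A2 (-0.54 ± 0.09, adjusted p = 8.6e-05), SLC38A1 (-0.59 ± 0.06, adjusted p = 7.2e-08) and SLC38A2 (-0.63 ± 0.07, adjusted p = 6.7e-07). The SLC7A1 call at 1 h did not hold without WT untreated, WT CD3+CD28+TSP1, JinB8 untreated, JinB8 CD3+CD28 or JinB8 CD3+CD28+TSP1 at 1 h (-0.32, -0.44, -0.43, -0.41 and -0.44, adjusted p = 0.133, 0.0546, 0.0632, 0.0790 and 0.0600). SLC7A11 was called lower at 1 h only without WT CD3+CD28+TSP1 1 h (-0.24, adjusted p = 0.0369). At 3 h SLC7A1 was higher by 0.54 ± 0.19 (adjusted p = 0.025), which became 0.13 without the JinB8 library that stood apart (adjusted p = 0.307), 0.54 without WT CD3+CD28 (adjusted p = 0.0584) and 0.52 without WT TSP1 (adjusted p = 0.0650).

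Averaged over 1, 3 and 6 h, 4 transporters were higher in JinB8, 2 lower and 3 not called, beside 31.2% and 31.6% of all genes. SLC7A11 (1.39 ± 0.06, adjusted p = 6.1e-14), SLC1A5 (0.82 ± 0.06, adjusted p = 9.0e-11), SLC1A4 (0.44 ± 0.04, adjusted p = 1.7e-09) and SLC7A1 (0.35 ± 0.10, adjusted p = 0.0066) were higher. The SLC7A1 value became 0.22 without the library that stood apart (adjusted p = 0.00082), and it was not called with line as the only term (0.32, adjusted p = 0.156) or in the 4 pairs without activation (0.16, adjusted p = 0.335). SLC38A2 (-0.52 ± 0.05, adjusted p = 7.3e-09) and SLC38A1 (-0.18 ± 0.04, adjusted p = 0.00030) were lower. SLC38A1 was not called with line as the only term (-0.23, adjusted p = 0.0656) or in the 4 pairs without activation (-0.12, adjusted p = 0.168). For SLC38A1 this average joins a deficit at 1 and 3 h to an excess at 6 h (0.34 ± 0.07, adjusted p = 0.00032). For SLC7A5 the average was 0.00 with an interval of -0.19 to 0.19 (adjusted p = 0.991), made of -0.66 at 1 h and 0.86 ± 0.17 at 6 h (adjusted p = 0.00032). SLC3A2 averaged 0.09 (adjusted p = 0.208), and passed without the library that stood apart (0.14, adjusted p = 0.0318) and by limma voom (0.16, adjusted p = 0.0211).

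Per transcript length, which allows genes to be set side by side, SLC3A2 led in every group. In WT at 1 h the levels (TPM, isoform counts divided by transcript length and scaled to the same total in every library) were 130.4 for SLC3A2 and 123 for SLC38A2, whose ranges overlapped. SLC1A5 (49.5), SLC38A1 (47.6) and SLC7A5 (44.9) followed, each overlapping its neighbour, then SLC1A4 (14.1), SLC7A1 (13.4), SLC7A6 (9.10) and SLC7A11 (6.83). At 6 h in JinB8 the level of SLC3A2 was 201 ± 14.9 (SD, n = 3), followed by SLC1A5 (96.6), SLC7A5 (83.0), SLC38A2 (51.3), SLC38A1 (43.0), SLC7A11 (20.3), SLC7A1 (18.2), SLC1A4 (15.7) and SLC7A6 (12.1). SLC38A2 thus moved from rank 2 at 1 h in JinB8 (102) to rank 4, and SLC7A11 from rank 9 (7.55) to rank 6. At 6 h in JinB8 the ranges of SLC1A5 and SLC7A5, of SLC7A11 and SLC7A1, and of SLC7A1 and SLC1A4 overlapped, so SLC7A11 did not stand apart from SLC7A1. In WT SLC7A11 stayed at rank 9 (2.05 ± 0.0886 at 6 h).

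The light chains made up different mixtures in the lines. In WT, SLC7A11 was 11.3% ± 2.45 (SD) of the summed level of SLC7A5, SLC7A6 and SLC7A11 at 1 h, 8.43% ± 0.852 at 3 h and 3.53% ± 0.367 at 6 h. In JinB8 it was 14.1% ± 1.40, 18.7% ± 3.79 and 17.8% ± 2.99. SLC7A5 was the main light chain in all 6 groups, with mean shares of 65.2% to 80.7%. SLC7A6 held 14.98% ± 1.66 in WT and 20.7% ± 1.75 in JinB8 at 1 h, 10.9% ± 2.57 and 11.0% ± 1.11 at 3 h, and 22.9% ± 1.85 and 10.5% ± 0.194 at 6 h, so that the order of the lines at 1 h was turned at 6 h. The ratio of summed light chain to heavy chain level was 0.469 ± 0.0715 in WT and 0.471 ± 0.0278 in JinB8 at 1 h, and 0.695 ± 0.0659 and 0.573 ± 0.0234 at 6 h. At 3 h in JinB8 it spread from 0.746 to 1.32, the highest being the library that stood apart. These shares are descriptions, with no test. The scale moves differences between the lines: at 1 h the level per length was 49.5 in WT and 62.7 in JinB8 for SLC1A5, 14.1 and 18.1 for SLC1A4 and 9.10 and 11.1 for SLC7A6. None of these was called between the lines at 1 h in the count test. SLC7A1 and SLC7A5 were called lower in JinB8 at 1 h in that test, but per length their 1 h ranges overlapped. At 3 h SLC38A2 averaged 79.2 in WT and 78.6 in JinB8, and SLC3A2 148 and 147, with overlapping ranges. Both were called lower in JinB8 at 3 h in the count test.

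**Figure D3:**
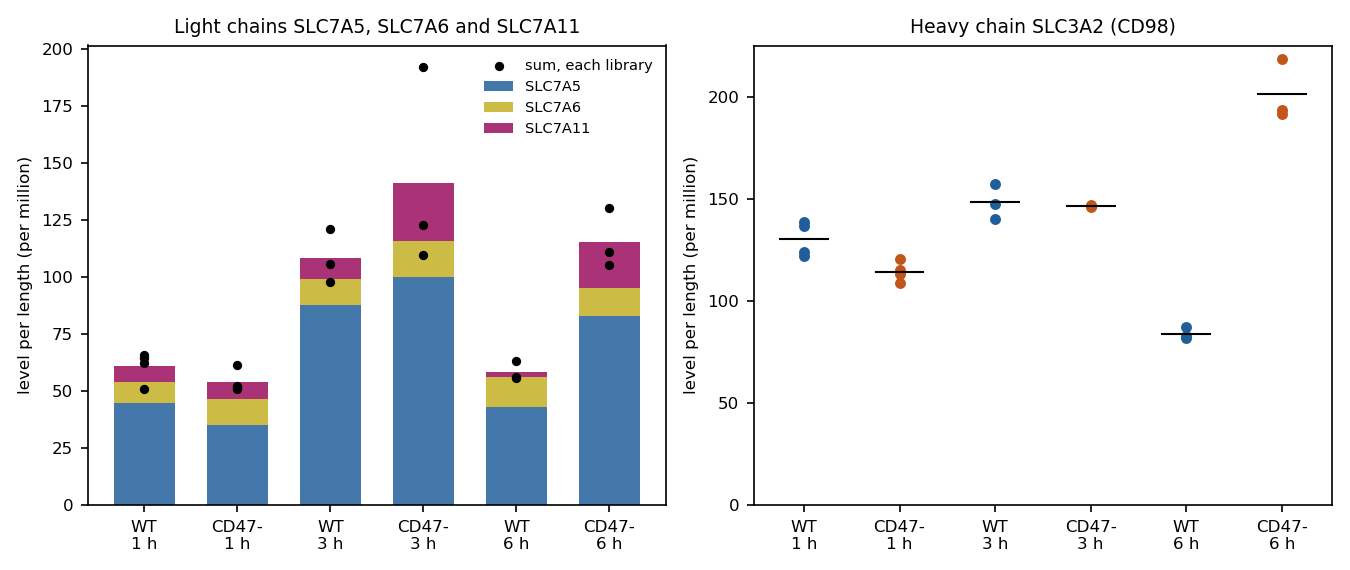
Levels per length (TPM, y axes) by line and time, with bars for the group means of the light chains SLC7A5, SLC7A6 and SLC7A11 stacked, points for each library and, for the heavy chain SLC3A2, lines for the means of 3 or 4 libraries. The summed light chains average 58.3 in WT and 115 in JinB8 at 6 h, and SLC3A2 84.0 and 201.

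No transporter passed the test for a treatment. Activation in the presence of TSP1 (CD3+CD28+TSP1 against TSP1, 3 pairs per line) and TSP1 in activated cells (CD3+CD28+TSP1 against CD3+CD28) called 0 of 9 transporters in either line, and their differences between lines also called 0. Over all genes, activation in WT called 0.0919% and the other 5 contrasts 0%. At an unadjusted p under 0.05, 816 and 2636 genes passed for activation in WT and JinB8, 366 and 1771 for TSP1, and 1048 and 393 for the differences between lines. DESeq2 called 0 of 9 transporters in each of the 6 contrasts. It called 54 genes for activation in WT, 1 for TSP1 in WT, 4 for the difference in activation and 0 in the other 3 contrasts. SLC7A5 had the smallest p of the 9 for activation in both lines, at 0.36 ± 0.11 in WT (adjusted p = 0.607) and 0.40 ± 0.11 in JinB8 (adjusted p = 0.283). With no filter on low counts both passed (0.35, adjusted p = 0.0134, and 0.39, adjusted p = 0.00161). Without the library that stood apart the JinB8 values were 0.32 with the filter (adjusted p = 0.527) and 0.32 with no filter (adjusted p = 0.000826). At 3 h, where SLC7A5 peaked in WT, the activated libraries held 454 and 416 CPM and the library with TSP1 alone 303, and in JinB8 340.0 and 423 against 263.

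For TSP1 in activated cells, SLC7A1 had the smallest p in JinB8 (0.43 ± 0.16, adjusted p = 0.459). This estimate became 0.09 ± 0.07 without the library that stood apart. With no filter on low counts SLC7A1 passed for TSP1 in JinB8 (0.41, adjusted p = 0.00212) and for activation in JinB8 (0.42, adjusted p = 0.00162). Neither call held without the library that stood apart (0.10 ± 0.08 for each, adjusted p = 1), a setting chosen after seeing the data. In WT it was SLC7A11 (-0.18 ± 0.09, adjusted p = 1). The differences between lines were led by SLC38A2 for activation (-0.27 ± 0.10, adjusted p = 0.705) and SLC7A1 for TSP1 (0.34 ± 0.22, adjusted p = 0.966). Without that library these became -0.19 (adjusted p = 0.908) and 0.014 (adjusted p = 1). CD3+CD28 against untreated cells rests on 1 library per line at 1 h and has no test. In that pair SLC38A2 held 576 against 480.0 CPM in WT and 360.0 against 318 in JinB8, while SLC7A1 held 90.9 against 124 in WT and 70.3 against 73.9 in JinB8. Some genes moved in opposite directions in the lines. Higher in WT and lower in JinB8 were SLC3A2 (253 against 196 CPM in WT, 157 against 181 in JinB8), SLC7A5 (195 against 179 in WT, 123 against 153 in JinB8) and SLC1A5 (136 against 109.7 in WT, 123 against 142 in JinB8). Lower in WT and higher in JinB8 were SLC7A6 (47.7 against 57.5 in WT, 50.4 against 47.7 in JinB8), SLC7A11 (68.8 against 83.4 in WT, 65.9 against 61.5 in JinB8) and SLC38A1 (377 against 397 in WT, 252 against 235 in JinB8).

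Of 84 isoforms listed for the 9 genes, 14 held at least 10% of their gene's counts. Between the lines 10 of the 14 were called, beside 26.6% of the 55450 isoforms tested, and 10 were called for the difference in the 6 h change, beside 1.9%. The 14 were kept for their part of the counts, and 4 genes have more than 1 of them. The shares over all isoforms are therefore not matched for level or gene. SLC7A6-201 held 79.5% ± 5.87 (SD, n = 10) of the gene's counts in WT and 61.03% ± 8.81 in JinB8, with shares of 68.4% to 87.8% and 47.7% to 73.8%. Its log2 difference was -0.47 ± 0.07 (adjusted p = 6.4e-05), while the gene as a whole differed by -0.10 (interval -0.21 to 0.01, adjusted p = 0.118). The 3 named isoforms of SLC1A5 all changed apart in the lines. SLC1A5-203, which starts farthest upstream, differed in its 6 h change by 1.57 ± 0.23 (adjusted p = 0.0012), SLC1A5-205 by 2.43 ± 0.24 (adjusted p = 4.6e-05) and SLC1A5-201 by 2.53 ± 0.44 (adjusted p = 0.0051). At 6 h SLC1A5-203 held 65.02% ± 0.576 of counts in WT and 44.4% ± 0.940 in JinB8. SLC7A5-203 differed by 1.75 ± 0.21 (adjusted p = 0.00022) and SLC7A5-201 by 1.20 ± 0.72 (adjusted p = 0.558). Averaged over the times, SLC1A4-203, a retained intron transcript, was higher in JinB8 by 0.80 ± 0.12 (adjusted p = 6.3e-05). It held 12.2% of counts there against 9.44% in WT. At 1 h it held 15.6% in JinB8 and 10.9% in WT, but at 6 h 8.22% and 10.8%. Its line difference at 6 h was 0.32 ± 0.21 (adjusted p = 0.405). Isoform counts are estimates that divide shared reads, so their errors exceed counting error.

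**Figure D4:**
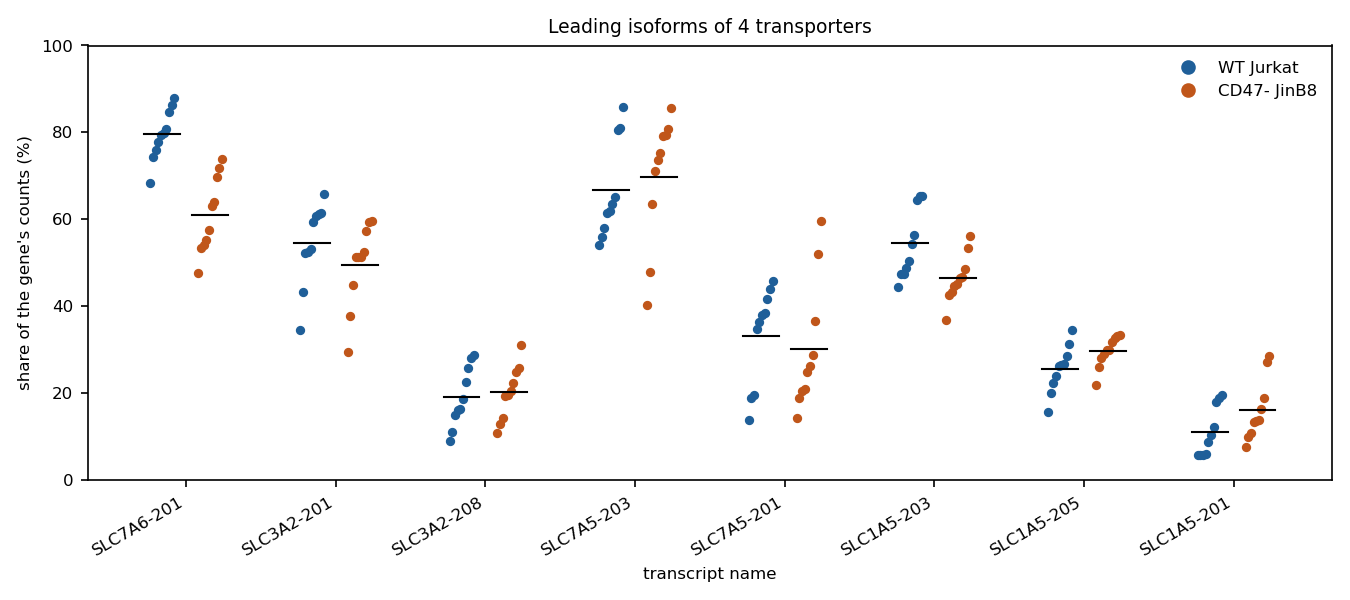
Percent of gene counts held by the leading isoforms of 4 transporters (y axis) in each of the 10 libraries of a line, with a line for the mean. SLC7A6-201 lies at 68.4% to 87.8% in WT and 47.7% to 73.8% in JinB8, while the ranges of SLC7A5-201 and SLC7A5-203 are wide in both lines.

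The 9 genes lie on 7 chromosomes in GRCh38 (GENCODE v44): SLC7A1 at chr13:29509414-29595688 (minus strand), SLC7A5 at chr16:87830023-87869507 (minus), SLC7A6 at chr16:68264516-68301823 (plus), SLC7A11 at chr4:138164097-138242349 (minus), SLC3A2 at chr11:62856004-62888880 (plus), SLC1A4 at chr2:64988477-65023865 (plus), SLC1A5 at chr19:46774883-46788594 (minus), SLC38A1 at chr12:46183063-46270017 (minus) and SLC38A2 at chr12:46358188-46372773 (minus). RefSeq promoter windows of 250 bases before to 50 after each start (GRCh38.p14) were searched on both strands for the element TGATGNAA, which binds dimers of C/EBP and ATF4 proteins. 8 of the 9 had windows, 14 in all, and SLC7A11 was not searched. The letters occur in 3.62% of 35116 windows and in 5 of the 14 windows, 1 each in 5 genes. Several of the 9 genes were known as targets of ATF4 before this search. The part of the element in the time changes was not tested. Each match is given within 30 bases, 5′ to 3′ along the gene, the element in capitals (for SLC1A4 and SLC3A2 on the opposite strand).
SLC7A1, chr13:29595663-29595692, minus strand: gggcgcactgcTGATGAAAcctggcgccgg
SLC3A2, chr11:62881719-62881748, plus strand: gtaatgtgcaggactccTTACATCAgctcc
SLC1A4, chr2:64989381-64989410, plus strand: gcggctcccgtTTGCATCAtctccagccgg
SLC1A5, chr19:46784893-46784922, minus strand: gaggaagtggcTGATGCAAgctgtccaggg
SLC38A1, chr12:46266502-46266531, minus strand: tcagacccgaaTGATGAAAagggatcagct

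The window of SLC7A1 holds the start of transcripts with 99.2% of the gene's counts in WT and 99.4% in JinB8, that of SLC1A4 89.8% and 87.0%, that of SLC1A5 34.5% and 37.6% and that of SLC3A2 22.7% and 24.2%. The SLC38A1 window holds 0% in both lines, so its match lies away from the starts in use. SLC1A5-205 is among the transcripts that start within 100 bases of the SLC1A5 window's start. The letters CACGTG, an E-box bound by MYC and related proteins, occur in 7.26% of windows and in 2 of the 14, those of SLC7A5 and SLC1A5. The SLC7A5 window holds 33.1% of the gene's counts in WT and 30.2% in JinB8. This SLC1A5 window is another than the one above and holds 11.1% and 16.01%.
SLC7A5, chr16:87869620-87869649, minus strand: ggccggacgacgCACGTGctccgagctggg
SLC1A5, chr19:46787326-46787355, minus strand: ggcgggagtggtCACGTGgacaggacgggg
The antioxidant response letters TGACNNNGC occur in 13.3% of windows and in 5 of the 14. These are windows of SLC7A1, SLC3A2, SLC7A5, SLC1A5 and SLC7A6. These matches are descriptions of letters in a window, not binding sites.

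Over the 20 libraries, with each line's mean removed and libraries of a line and time shared between points, the transporters most alike were SLC7A11 and SLC1A5 (r = 0.91) and SLC3A2 and SLC1A5 (r = 0.86). SLC7A6 and SLC38A2 ran in opposite directions (r = -0.92). Among 13140 other genes, those most like SLC7A11 were GARS1 (r = 0.96), which charges glycine tRNA, STC2 (r = 0.96), a secreted glycoprotein, and RNF2 (r = 0.94). Those most like SLC1A5 were KCTD15 (r = 0.93), GARS1 (r = 0.93) and JDP2 (r = 0.92), and those most like SLC3A2 were MARS1 (r = 0.93), which charges methionine tRNA, ETF1 (r = 0.92) and ADCK2 (r = 0.91). SLC38A1 was closest to PSAT1 (r = 0.93), of serine synthesis, ITGA6 (r = 0.93) and GPT2 (r = 0.91). SLC38A2 was closest to YOD1, ZNF277 and the glucose transporter SLC2A3 (r = 0.99 each). The closest genes were KCNK5 for SLC7A5 (r = 0.95), ENTPD7 for SLC7A6 (r = 0.96), ZNF461 for SLC7A1 (r = 0.92) and PDE4D for SLC1A4 (r = 0.95).

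Genes of the amino acid response, 15 of 16 of which were tested, mostly fell with time in both lines. In WT 1 was higher and 13 lower at 6 h (median -1.14), and in JinB8 3 were higher and 10 lower (median -0.55). The difference between the lines called 9 higher and 4 lower (median 0.90, beside -0.00 over all genes). For this list and those below, 26.8% of all genes were higher and 26.6% lower at 6 h in WT. In JinB8 the shares of all genes were 26.4% and 27.5%, and for the difference 6.39% and 10%. STC2 differed by 2.18 ± 0.11 (adjusted p = 1.4e-10), ATF3, a stress-induced transcription factor, by 2.29 ± 0.18 (adjusted p = 6.5e-08) and JDP2, a leucine zipper protein, by 2.12 ± 0.17 (adjusted p = 8.8e-08). ATF3 averaged 57.5 CPM at 1 h and 6.58 at 6 h in WT, and 42.7 and 24.1 in JinB8. ASNS, asparagine synthetase, fell by 1.70 ± 0.10 in WT (adjusted p = 9.2e-11) and averaged 47.7 and 14.7 CPM in WT and 72.5 and 49.5 in JinB8.

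Genes that use the imported glutamine and arginine (16 of 18 tested) gave 5 higher and 1 lower for the difference between lines, with a median of -0.01. GPT2, a mitochondrial alanine transaminase, differed by 2.51 ± 0.10 (adjusted p = 6.7e-12), falling from a mean of 14.7 to 5.18 CPM in WT and rising from 13.03 to 26.3 in JinB8. ODC1, which opens polyamine synthesis, differed by 1.03 ± 0.15 (adjusted p = 7.4e-05) and BCAT1, a branched-chain transaminase, by 0.90 ± 0.11 (adjusted p = 8.1e-06). Genes of glutathione synthesis and NRF2 targets (12 of 14 tested), downstream of the cystine that SLC7A11 imports, gave 8 higher and 2 lower at 6 h in WT and 8 and 2 in JinB8, and 1, NFE2L2, for the difference between lines (0.54 ± 0.10, adjusted p = 0.00061). Their medians at 6 h were 0.51 and 0.50, unlike the opposite medians of the 9 transporters, though this contrast of lists was not tested. Amino acid sensing by mTORC1 (33 genes, all tested) gave 4 higher and 3 lower for the difference, beside 6.39% and 10% of all genes. SESN2, a leucine sensor, differed by 1.29 ± 0.17 (adjusted p = 2.6e-05), and TSC1 (-0.50 ± 0.10, adjusted p = 0.0022) and FNIP1 (-0.28 ± 0.07, adjusted p = 0.011) were lower. Over leave-outs this list called 3 to 9 genes, with 9 without the library that stood apart and 3 without JinB8 TSP1 1 h.

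Of 35 other plasma membrane amino acid transporters only 10 passed the filter on low counts, and for the difference between lines 3 were higher and 1 lower (median -0.17). SLC6A9, a glycine transporter, had the largest value (3.08 ± 0.45, adjusted p = 0.00010), but at low level, averaging 1.42 and 0.671 CPM at 1 and 6 h in WT and 1.18 and 4.74 in JinB8. SLC43A1, a neutral amino acid carrier, differed by 0.60 ± 0.16 (adjusted p = 0.012) and SLC6A6, the taurine transporter, by -0.41 ± 0.11 (adjusted p = 0.013). Lysosomal transporters (9 of 10 tested) gave counts close to each other in the lines, with 6 higher and 0 lower at 6 h in WT, 5 and 1 in JinB8 and 0 called for the difference. Mitochondrial carriers (11 of 13 tested) gave 6 higher and 5 lower in each line and 1 for the difference, SLC25A39 (0.39 ± 0.12, adjusted p = 0.029).

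**Figure D5:**
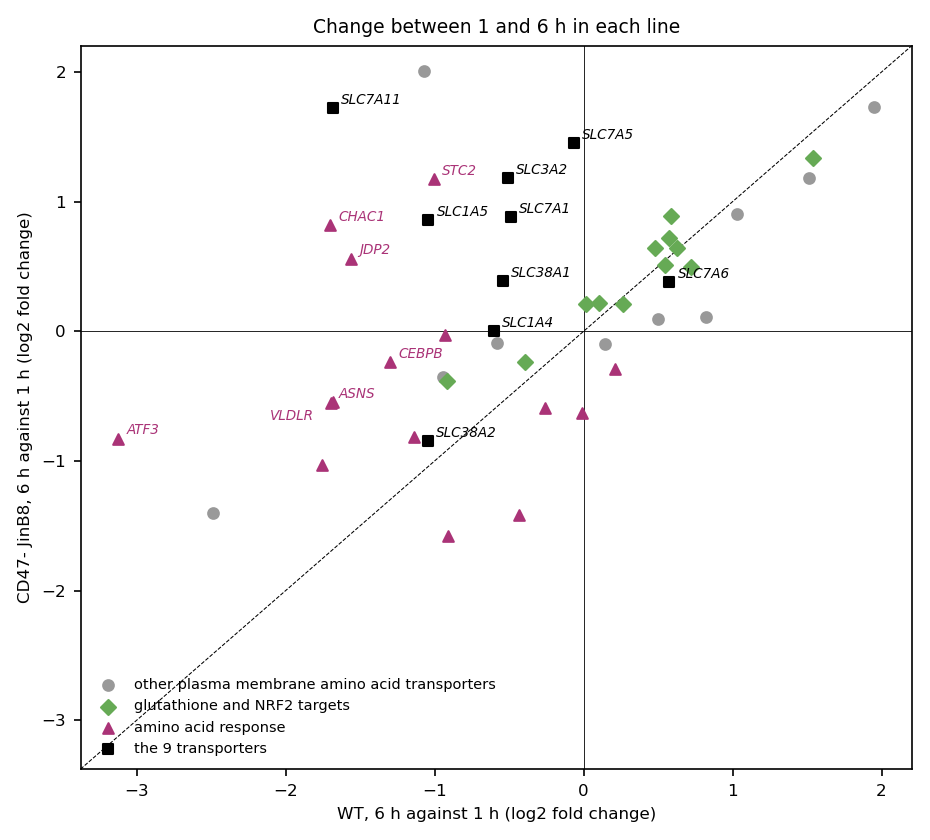
Log2 change from 1 to 6 h in WT (x axis) and JinB8 (y axis) for the 9 transporters, the amino acid response, glutathione and NRF2 targets and other plasma membrane transporters, a point for each gene and a dashed line of equal change. The transporters lie mostly left of 0 in WT and above 0 in JinB8, with medians of -0.54 and 0.86, while the amino acid response list has medians of -1.14 and -0.55.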

How the data were processed

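Bulk RNA-seq of 20 libraries was analysed from the gene and isoform tables the authors deposited, which hold RSEM expected counts. The submitters' notes name cutadapt 1.18, STAR 2.4.2a and RSEM 1.3.3 with GRCh38 (hg38) and GENCODE v36. Such counts divide reads shared between isoforms or near-identical genes by estimation. Of the columns, 2 per gene or isoform file belong to no sample here and were not used. Expected counts were rounded, filtered by filterByExpr by line (minimum count 10, total 15), scaled by TMM and tested with edgeR 4.0.16 quasi-likelihood (R 4.3.3), with Benjamini-Hochberg adjustment over all 16327 genes and a threshold of 0.05. Line and time formed 6 groups. Treatment contrasts used line by treatment terms with a time term in each line. Intervals are 2 standard errors. CPM values are scaled by TMM. Levels per length (TPM) used GENCODE v44 lengths, which cover 99.1% of isoform counts. The study names limma voom with quantile normalization, tried here as an alternative (limma 3.58.1) beside DESeq2 1.42.0, other scalings and filters, blocks and leaving out each library. The study also names batch correction by ComBat, which was not applied here. Its methods do not state which libraries formed a batch. Scripts were tested on simulated data. All 9 transporters and their values are reported, while in treatment contrasts and other lists the genes with the smallest adjusted p are named (up to 3 per list and comparison), and isoforms with at least 10% of counts. Genes most like a member were ranked by Pearson r of log2(CPM + 0.5). The members and lists were chosen with earlier results of these data known. The labels give the anti-CD3 dose in a different unit from the study's methods, so it is not printed.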

Additional observations from a re-analysis of the deposited data

Results flagged for a closer look

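For 7 of the 9 transporters the change from 1 to 6 h differed between JinB8 and WT by a test of the difference itself (edgeR, adjusted p under 0.05). The log2 change in JinB8 minus that in WT was 3.41 for SLC7A11, 1.90 for SLC1A5, 1.69 for SLC3A2, 1.52 for SLC7A5, 1.37 for SLC7A1, 0.93 for SLC38A1 and 0.60 for SLC1A4. SLC7A11, SLC1A5, SLC3A2, SLC7A1 and SLC38A1 fell in WT and rose in JinB8, but the WT fall of SLC7A1 was called in only 4 of the 7 other settings tried (adjusted p up to 0.101). SLC7A5 rose in JinB8 and SLC1A4 fell in WT, while the other line's change did not pass the test. The same 7 were called when each of the 20 libraries was left out in turn and under each of the 6 other settings tried for this comparison. A search of the 9 transporters in both groups of 4 libraries at 1 h, 18 tests in all, for a single library far from the others (Dixon's 95% criterion) found 0. Groups of 3 libraries, at 3 and 6 h, were not searched, so the count of 0 does not cover them. They include the JinB8 library that stood apart, which held 209 CPM of SLC7A1 at 3 h against 102 and 102 in the others.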

How the results depend on the processing

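Of the results on members, 563 of the values under other settings kept their direction and their side of the threshold, 10 lost and 5 gained a call and 11 turned, the last all small and not called. The 7 calls for the difference in the 6 h change held under all 6 other settings, with SLC7A11 at 3.39 to 3.50. The line difference called 6596 genes with line alone and 6263 in the 4 pairs without activation, against 10252. SLC7A1 was then not called (0.32 and 0.16, adjusted p = 0.156 and 0.335), nor was SLC38A1 (-0.23 and -0.12). Activation in WT called 15 genes, and 54 by DESeq2, 28 by limma voom, 201 with no filter, 0 with no time term and 5 with WT alone. TSP1 in WT called 0 genes, 1 by DESeq2 and 84 with no filter, and the difference in activation 4 and 255. With no filter, activation in JinB8 called 538 genes, TSP1 in JinB8 401 and the difference in the TSP1 effect 140, with 1 transporter called for activation in WT, 2 in JinB8 and 1 for TSP1 in JinB8 (SLC7A1 0.41). With no filter and without JinB8 CD3+CD28+TSP1 3 h, a setting chosen after seeing the data and outside the totals above, SLC7A1 was not called for TSP1 (0.096) or activation (0.10) in JinB8, while SLC7A5 was called for activation (0.32, adjusted p = 0.000826). With 1 library left out, activation in WT called 0 to 42 genes, TSP1 in JinB8 0 to 1, and the differences between lines 0 to 9 for activation and 0 to 1 for TSP1. Values that turned were SLC7A5 over the lines in the 6 activated pairs (-0.023) and in WT at 6 h by voom (0.034), SLC1A5 between lines at 1 h by voom (0.028) and with no filter (0.00076) and in WT at 3 h by voom (0.058), SLC1A4 in JinB8 at 6 h with no filter (-0.011), the treatment block (-0.030) and without untreated cells (-0.031), and SLC7A1 in WT at 3 h (0.0065, 0.029 and 0.026 by voom, block and without untreated). Over all libraries left out in turn, results that turned at least once ranged from -0.052 to 0.059 for SLC7A5 and over -0.138 to 0.046 at 6 h in WT, -0.052 to 0.044 and -0.217 to 0.025 for SLC7A6 at 1 and 3 h, -0.080 to 0.077 for SLC1A5 at 1 h and -0.099 to 0.063 at 3 h in WT, -0.030 to 0.033 for SLC1A4 and -0.151 to 0.026 for SLC7A1. For libraries matched for treatment and time, the correlation of their deviations from group means was -0.27 to 0.10, over 0.1 in 1 of 10 pairs. A batch common to all libraries of a time cannot show in this value, because the means of each line and time were removed. With a replicate block for these pairs 6 transporters were called between lines, 5, 7 and 8 at 1, 3 and 6 h, and 7 for the difference in the 6 h change. With a block for treatment, the WT decline of SLC7A1 was -0.37 (adjusted p = 0.0636), and -0.38 without untreated cells (adjusted p = 0.101). Voom calls also differed for SLC7A1 between lines at 1 h (-0.38) and in WT at 6 h (-0.45, adjusted p = 0.0505), for SLC3A2 at 3 h (-0.24) and over all times (0.16, adjusted p = 0.0211), and SLC38A1 at 3 h (-0.14 in WT, 0.19 in JinB8). The causes were not tested.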
